A study of Mus musculus with 2 samples.

Results

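The genes described here encode the nuclear subunits of respiratory complexes II, III and IV and of the ATP synthase (complex V), together with somatic cytochrome c. They were chosen by gene symbol alone: the 4 Sdh subunit genes, all Uqcr genes, Cyc1, Cycs, Cox4 to Cox8 genes, all Atp5 genes and Usmg5, without symbols marked as pseudogenes. The rule found 52 annotated genes with 51 symbols among 55450 genes. Of these, 4 belonged to complex II, 9 to complex III, 17 to complex IV and 17 to complex V, and 1 was Cycs. The other 4 were Cox7a2l, Atp5s, Cox6c2 and a second gene entry named Atp5o. The samples were 2 libraries, replicates 1 and 2, of a single group: adult B6NCrl mice aged 6 months, whose left cerebral cortex gave 20 ng of RNA for poly(A) selection and Nextera tagmentation. No genotype, treatment or second tissue was part of the design. The labels called the mice male in a description and gave the sex as not collected elsewhere. Both libraries carried the same donor entry and separate biosample records, so the spread between them measures only these libraries and may be technical.

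These complexes carry electrons and make ATP in the inner mitochondrial membrane. Complex II (succinate dehydrogenase) passes electrons from succinate to ubiquinone, complex III passes them on to the small soluble carrier cytochrome c, and complex IV (cytochrome c oxidase) hands them to oxygen. Complexes III and IV pump protons, and the ATP synthase lets the protons back through a ring of c subunits whose rotation drives ATP formation in its F1 head. Complex II is built from nuclear genes alone, whereas the others also hold subunits encoded by mitochondrial DNA. Brain cells depend on this machinery for most of their ATP, and several complex IV subunits exist in a form made in most tissues and in other forms known from heart and skeletal muscle, lung or testis.

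The c subunit of the ATP synthase ring is encoded by 3 nuclear genes, Atp5g1, Atp5g2 and Atp5g3. Their targeting peptides differ, and where these end was not determined. The translated main coding transcripts hold 58, 68 and 63 residues before an identical final stretch of 78 residues. The coding bases of that stretch are shown since all levels of these genes below rest on telling them apart. Capitals mark the bases at which the 3 genes are not all the same. They were read 5′ to 3′ from the GENCODE M21 transcripts, all on the minus strand of mm10, and span an intron or introns.

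Atp5g1, chr11:96073107-96073644: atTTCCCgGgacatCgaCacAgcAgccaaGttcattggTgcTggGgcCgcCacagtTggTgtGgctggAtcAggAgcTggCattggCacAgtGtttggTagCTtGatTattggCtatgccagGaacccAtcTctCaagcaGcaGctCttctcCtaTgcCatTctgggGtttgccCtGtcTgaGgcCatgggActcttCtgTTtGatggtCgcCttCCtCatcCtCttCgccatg
Atp5g2, chr15:102663017-102665175: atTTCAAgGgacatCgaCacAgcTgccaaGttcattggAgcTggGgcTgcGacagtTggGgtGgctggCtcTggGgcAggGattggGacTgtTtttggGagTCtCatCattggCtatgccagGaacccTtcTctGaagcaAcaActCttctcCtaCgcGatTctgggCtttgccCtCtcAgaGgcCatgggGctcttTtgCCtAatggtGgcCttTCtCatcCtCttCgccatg
Atp5g3, chr2:73908596-73909305: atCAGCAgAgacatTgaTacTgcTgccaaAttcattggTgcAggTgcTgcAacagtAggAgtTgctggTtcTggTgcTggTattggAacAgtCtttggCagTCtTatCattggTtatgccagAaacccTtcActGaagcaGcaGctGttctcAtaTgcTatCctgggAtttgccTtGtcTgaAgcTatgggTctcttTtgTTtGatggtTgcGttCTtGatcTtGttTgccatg

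The 3 genes differed at 63 of these 234 bases, and the longest run common to all was 8 bases. Atp5g1 and Atp5g2 were the closest pair, with 198 identical bases (84.6%). Atp5g1 and Atp5g3 shared 184 bases (78.6%), and Atp5g2 and Atp5g3 shared 181 (77.3%). No stretch of 31 bases was common to any pair of the 3 whole transcripts, so a longer read from one gene does not match another exactly.

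Levels are given as TPM from the deposited gene tables, which is a length-corrected share of each library, first for replicate 1 and then for replicate 2, with the mean ± SD over the n = 2 libraries where one is stated. With 1 group there is nothing to test, and no p-value is given. The gene tables held 51876103 fragments in replicate 1 and 26770991 in replicate 2. The markers of cortical neurons (9 genes, median 62.1 ± 29.1 TPM), astrocytes (5, 47.6 ± 1.52), oligodendrocytes (5, 317.6 ± 44.9) and microglia (5, 30.3 ± 3.21) each had all their genes detected, that is, at 1 TPM or more in each library. Endothelial markers had a median of 8.74 ± 0.03 TPM, and those of pericytes and smooth muscle 3.23 ± 0.76. Of 10 heart and skeletal muscle markers 4 reached that level, among them Myh7 at 20.22 and 35.02 TPM, and Actc1 was listed at 0. Brown fat (median 0.98 ± 0.11 TPM, Ucp1 listed at 0) and germ cell markers (median 0) were near or at 0.

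Of the 52 members, 50 were detected, against 24.9% of all genes and 56.7% of nuclear protein coding genes. Their median was 710 ± 24.6 TPM, against 13.8 TPM over the detected nuclear protein coding genes. The members held 6.54% and 6.66% of all nuclear protein coding TPM. Over all genes they held 5.36% and 5.59% of the TPM, but 2.06% and 2.33% of the fragments, since their transcripts are short. They made up 4 of the 20, 9 of the 50, 16 of the 100 and 27 of the 200 highest of 21938 nuclear protein coding genes. By complex, the median was 189.6 ± 56.8 TPM for complex II, 722.8 ± 46.3 for complex III, 1110 ± 17.7 for complex IV and 1024 ± 34.5 for complex V. The 10 complex IV genes that carry the usual form of each subunit had a median of 2260 ± 120 TPM, and its 7 other genes one of 5.38 ± 0.13 TPM. The nuclear subunits of complex I (39 genes) had a median of 529 ± 43.3 TPM.

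**Figure D1:**
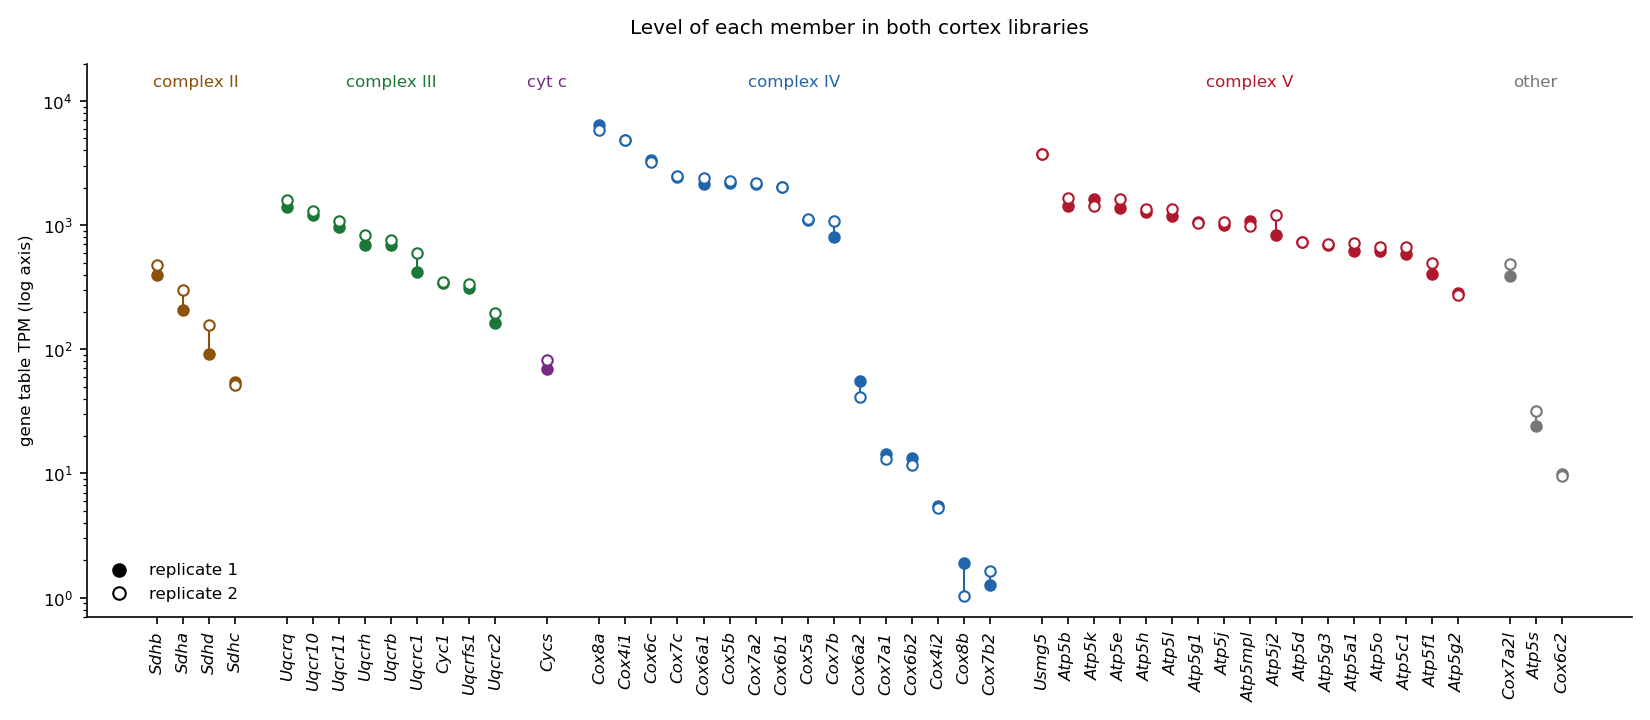
Gene table TPM (log axis) of the 50 members above 0 in both libraries, grouped by complex and ordered by mean; filled points are replicate 1, open points replicate 2 and lines join them. The usual forms of complex IV lie above 800 TPM, its 6 plotted tissue forms lie below 56 TPM, and complex II lies below 480 TPM.

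Complex II had the lowest median of the 4 complexes, and its 4 genes were well separated. Sdhb (ENSMUSG00000009863.14, chr4:140961203-140979193), the iron-sulfur subunit, stood at 396.97 and 478.73 TPM. Sdha, the flavoprotein that oxidises succinate, stood at 207.67 and 301.19 TPM. The membrane anchors were lower: Sdhd at 91.28 and 158.32 TPM, and Sdhc at 54.51 and 51.22 TPM. The 4 genes kept this order in both libraries, and the ranges of none of the 3 neighbouring pairs overlapped.

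In complex III the small subunits were higher than the large ones. The 5 small subunits had a median of 1022 ± 71.8 TPM and the 4 catalytic and core subunits one of 334.8 ± 10.1 TPM. Uqcrq was highest at 1403.31 and 1601.82 TPM, followed by Uqcr10 at 1198.75 and 1306.0 and Uqcr11 at 971.59 and 1073.11 TPM. These 3 are small membrane-anchored subunits without a redox centre. Cyc1, the cytochrome c1 that reduces cytochrome c, stood at 342.06 and 350.24 TPM, and Uqcrfs1, the Rieske iron-sulfur protein, at 313.2 and 333.61 TPM. The core proteins were far apart, with Uqcrc1 at 421.75 and 592.99 TPM and Uqcrc2, the lowest gene of the complex, at 161.67 and 196.2 TPM. Of 8 neighbouring pairs in the order, only Uqcrh and Uqcrb overlapped.

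The listed level of the cytochrome c gene was low. Cycs (ENSMUSG00000063694.5, chr6:50562563-50566538) stood at 69.62 and 82.28 TPM in the gene tables, below every subunit of complex III and every usual form of complex IV in both libraries. The testis form Cyct, which lies outside the rule, was listed at 0. The Cycs value depends on how fragments were divided among copies: Gm10053, annotated as protein coding on chromosome 19 (24875686 to 24876631), holds 26.2% of the 31-base stretches of Cycs. It stood at 149.7 and 178.05 TPM with 4708 and 2989 fragments, against 7884 and 4726 fragments for Cycs. Another 31 genes, processed pseudogenes that each share under 10% of the stretches of Cycs, held 1760 and 1348 fragments in all. In the second transcript tables, a separate quantification of the same libraries, Cycs stood at 44.7 and 53.4 TPM and Gm10053 at 141.8 and 202.2 TPM.

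Complex IV held the highest members of all. Cox8a (ENSMUSG00000035885.5, chr19:7215153-7217616), a single-span subunit, stood at 6467.9 and 5862.89 TPM and ranked 7 among nuclear protein coding genes. Cox4i1, the usual form of the largest nuclear subunit, stood at 4846.59 and 4811.86 TPM (rank 10), and Cox6c at 3325.6 and 3212.57 TPM (rank 16). Cox7c, Cox6a1, Cox5b, Cox7a2 and Cox6b1 followed between 2018.01 and 2448.96 TPM in replicate 1 and between 2012.89 and 2469.71 in replicate 2. Cox5a, which sits on the matrix side, stood at 1097.85 and 1122.9 TPM. Cox7b was the lowest of the usual forms at 803.05 and 1071.21 TPM. In the second tables Cox5a was the lowest instead, at 779 and 878 TPM, against 1113 and 1523 TPM for Cox7b. Of the 16 neighbouring pairs, 3 overlapped: Cox6a1 with Cox5b, Cox7a1 with Cox6b2 and Cox8b with Cox7b2.

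The subunits with tissue forms were carried almost wholly by 1 gene each. Cox6a2, the heart and skeletal muscle form of subunit 6A (ENSMUSG00000030785.8, chr7:128205435-128206387), was the most abundant of the 7 other forms at 55.45 and 41.37 TPM, which was 2.52% and 1.69% of the summed TPM of Cox6a1 and Cox6a2. Cox7a1, the muscle form of 7A, stood at 14.31 and 13.16 TPM (0.662% and 0.597% of the subunit), and Cox6b2, the testis form of 6B, at 13.31 and 11.74 TPM (0.655% and 0.580%). Cox4i2, known from lung and from the response to low oxygen, stood at 5.47 and 5.28 TPM (0.113% and 0.110%). Cox7b2 stood at 1.25 and 1.64 TPM (0.155% and 0.153%) from 19 and 14 fragments. Cox8b, the muscle form of subunit 8, stood at 1.88 and 1.03 TPM (0.029% and 0.018%) from 15 and 5 fragments.

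The testis form Cox8c was listed at 0 in both libraries and in both quantifications, which at this depth allows up to 0.0578 and 0.112 CPM (fragments scaled to library size), the worth of 3 fragments, for counting error only. Cox6a2 lay 38.7-fold and 58.1-fold below Cox6a1 in TPM, and Cox8b 3440-fold and 5692-fold below Cox8a. All 31-base stretches of Cox4i2, Cox6a2, Cox6b2, Cox7a1, Cox8b and Cox8c were unique to those genes, and 99.8% of those of Cox7b2 were. Cells of a rare type and little RNA in common cells cannot be told apart in bulk cortex. Cox6a2 had 1151 and 470 fragments, a log2 ratio of replicate 2 over replicate 1 of -0.42 in CPM (counting interval -0.58 to -0.27). Of 5 markers of parvalbumin interneurons 1 (Tac1, at 0.46) had a ratio above 0, against 50.4% of all tested genes. Their summed levels were 571.7 and 343.3 TPM, most of it Cplx1 at 394.34 and 199.91, with Pvalb at 84.39 and 73.83 TPM. Of the 9 cortical neuron markers 5 had a ratio above 0, among them Gad1 at 0.32 and Gad2 at 0.40. Slc17a7, Rbfox3 and Tbr1 were 1.5-fold or more lower in replicate 2, against 16.1% of all tested genes. The 10 heart and skeletal muscle markers summed to 44.9 and 73.0 TPM, most of it in Acta1 (18.99 and 27.79) and Myh7, while Ckm was at 0.12 and 0.25 TPM. Whether parvalbumin interneurons or muscle cells had a part in the Cox6a2 level was not tested.

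All 17 ATP synthase genes were detected, and many had levels close to a neighbour in the order. Usmg5 (ENSMUSG00000071528.4, chr19:47083464-47090647), a small membrane subunit linked to pairing of the synthase, was highest at 3725.54 and 3762.89 TPM and ranked 14 among nuclear protein coding genes. Atp5b, the catalytic β subunit, stood at 1419.52 and 1646.2 TPM, and its partner in the F1 head, the α subunit Atp5a1, at 614.64 and 722.66 TPM. The main coding transcripts of the 2 genes were closer, at 722.87 and 828.57 TPM for Atp5b and 608.96 and 714.96 TPM for Atp5a1. Atp5k, the membrane subunit e, stood at 1611.98 and 1433.02 TPM. In the central stalk, Atp5e was at 1380.12 and 1632.49 TPM, Atp5d at 729.16 and 732.89, and the γ subunit Atp5c1 at 586.45 and 669.3 TPM.

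The 4 peripheral stalk genes, which hold the head still, had a median of 833.8 ± 38.2 TPM, and the 5 small membrane subunits a median of 1270 ± 119 TPM. Atp5f1, subunit b of the stalk, was the lowest of the former at 406.23 and 492.74 TPM. Of 16 neighbouring pairs in the order of complex V, 9 overlapped, so that much of the order between Atp5b and Atp5c1 was not resolved by these libraries. The second entry named Atp5o (ENSMUSG00000116933.1, chr16:91684398-91926982) overlaps the Atp5o gene itself (chr16:91925214-91931687) and held no fragments, while Atp5o stood at 613.44 and 661.34 TPM.

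The c-ring genes whose bases are printed above stood at 1061.75 and 1048.87 TPM for Atp5g1, 695.79 and 709.29 TPM for Atp5g3 and 283.84 and 274.68 TPM for Atp5g2, the lowest member of complex V. Of their summed TPM, Atp5g1 held 52.0% and 51.6%, Atp5g3 34.1% and 34.9%, and Atp5g2 13.9% and 13.5%. The order was the same in both libraries and both quantifications. The Atp5g2 share is the least secure: Gm10175, a transcribed processed pseudogene on chromosome 7 (23946646 to 23947290), shares 37.5% of the 31-base stretches of Atp5g2 and was given 8642 and 2662 fragments, against 6472 and 3378 for Atp5g2. In the second tables Atp5g2 held 11.2% and 8.53% of the c-ring TPM, at 160.8 and 131.0 TPM, and Gm10175 stood at 398.8 and 327.8 TPM.

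Among the remaining members, Cox7a2l, which is related to subunit 7A and joins complexes III and IV into supercomplexes, stood at 385.78 and 486.8 TPM. Atp5s, coupling factor B, stood at 24.25 and 32.01 TPM. Cox6c2 is annotated as a processed pseudogene (ENSMUSG00000066491.4, chr12:56373593-56373823), and 61.7% of its 31-base stretches are shared with other genes. It stood at 9.89 and 9.5 TPM in the gene tables and at 1.36 and 3.58 in the second tables, from 32 and 21 fragments.

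Both quantifications gave nearly the same order of members, with a Spearman correlation over the 52 members of 0.991 in each library, as a description across genes of shared libraries. The second tables were lower for most genes, with a median log2 ratio of -0.45 and -0.29 over the members. Of 48 members with a mean of 5 TPM or more, Cox6c2 alone was 2-fold or more lower in the second tables in both libraries, against 1.35% of 10102 genes, and none was 2-fold or more higher, against 0.416%. At 1.5-fold, Cycs (log2 -0.64 and -0.62) and Atp5g2 (-0.82 and -1.07) were added, with no share of all genes given at that cutoff. Cox7b was higher in the second tables, at 1113 and 1523 TPM.

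**Figure D2:**
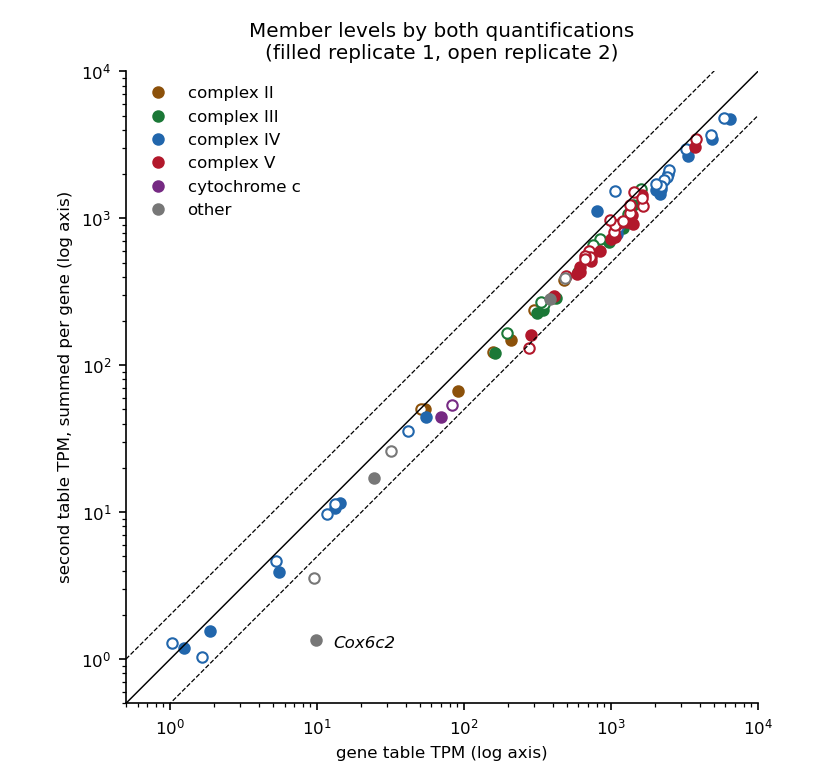
TPM of the 50 members above 0 in both libraries, gene tables (x axis, log) against the second transcript tables summed per gene (y axis, log); filled points are replicate 1 and open points replicate 2. The solid line marks equal values and the dashed lines 2-fold; Cox6c2 lies below the lower dashed line in both libraries.

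The members were next compared with other genes for shared bases. Of the 52 members, 34 shared at least one 31-base stretch with another annotated gene, 29 of them with a processed pseudogene, and 18 shared none. The like counts over all genes are not given here. One shared stretch need not mark a copy: Atp5l shared stretches with 1740 other genes, and 0 of these held 10% or more of its stretches. The median share of unique stretches was 97.0% over the members, against 99.5% over nuclear protein coding genes. Among the 49 members that were nuclear protein coding genes detected in both libraries, none had under 50% unique stretches, against 2.8% of such genes. The lowest of them were Atp5g2 at 59.8%, Uqcrb, the ubiquinone-binding small subunit of complex III, at 67.6%, Cycs at 70.8% and Atp5h at 74.6%. The 4 processed pseudogenes that share bases with Uqcrb held 22.6 and 21.8 fragments in all, against 10307 and 6348 for Uqcrb. Cox7c shared 162 of its 1157 stretches with Gm12338, which held 886.9 and 282.9 fragments against 35157 and 20035 for Cox7c.

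The transcripts behind these levels were next compared. Over 43 members with 10 TPM or more and 2 or more annotated transcripts, transcripts that are not annotated as protein coding held a median of 1.00% and 1.16% of the gene's TPM, against 3.07% and 2.99% over 6237 such protein coding genes. They held 25% or more in both libraries in 6 members, Cox5b, Cox7a2, Cox7b, Atp5b, Atp5j and Atp5f1, against 18.4% of such genes. In the second tables this held for 5 members, Uqcrq, Cox5b, Cox7b, Atp5b and Atp5f1, so that Cox7a2 and Atp5j passed only in the first tables and Uqcrq only in the second. In Cox7a2 the noncoding share was 42.7% and 43.0% in the first tables and 9.34% and 12.7% in the second.

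**Figure D3:**
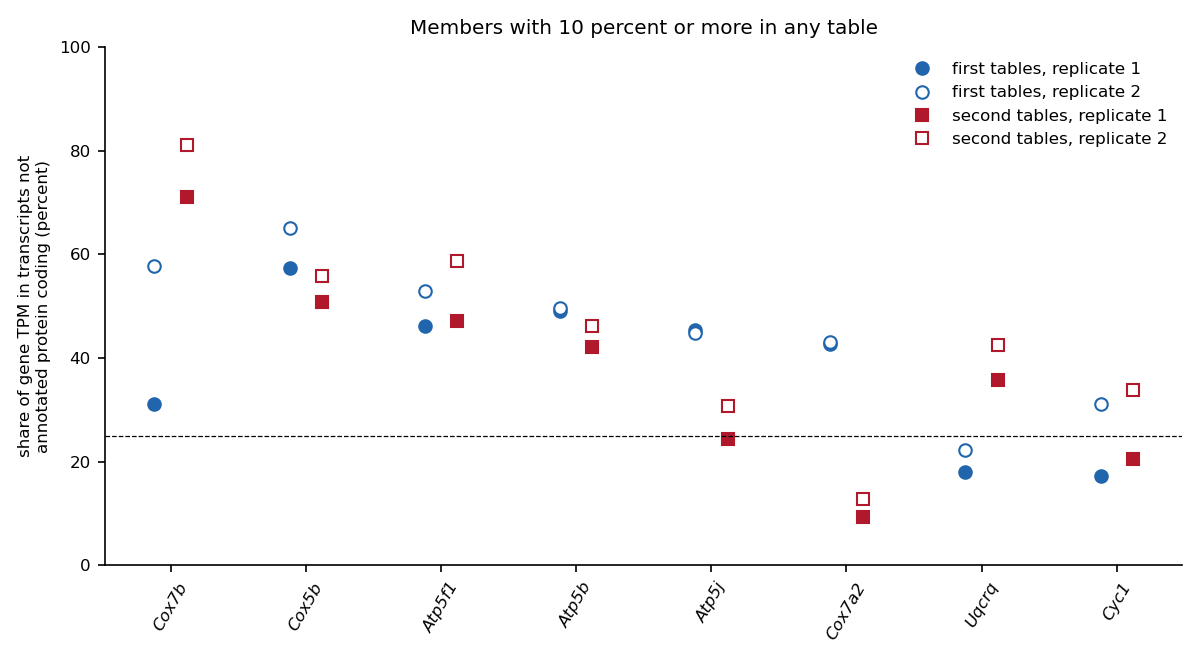
Share of gene TPM (percent) in transcripts not annotated as protein coding, for the 8 members in which it reached 10% in any table; circles are the first transcript tables, squares the second, filled replicate 1 and open replicate 2, and the dashed line marks 25%. Cox5b lies above 50% in all 4 tables, whereas Cox7a2 lies above the line in the first tables only.

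Cox5b was the only member whose main transcript was not protein coding in both libraries, against 8.27% of such genes. Cox5b-205, a processed transcript of 362 bases, held 57.1% and 64.8% of the gene's TPM in the first tables and 50.5% and 55.5% in the second. The coding transcript Cox5b-204, of 865 bases, held 41.3% and 33.6%. By fragments the order was the other way, with 10153 and 7232 for Cox5b-205 against 25648 and 11622 for Cox5b-204. Cox5b-205 holds no base that Cox5b-204 lacks and skips 47 coding bases at the start of exon 2 (mm10, chr1:36692211-36692257, plus strand), a length that is not a multiple of 3. The skipped bases are shown in capitals within the Cox5b-204 coding sequence, with 30 bases on each side, since the junction they leave is what sets Cox5b-205 apart from the coding transcripts.

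Cox5b-204, 107 bases: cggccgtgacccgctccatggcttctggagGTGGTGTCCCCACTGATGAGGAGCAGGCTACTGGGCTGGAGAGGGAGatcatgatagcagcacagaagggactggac

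Of the 332 stretches of 31 bases in Cox5b-205, 26 are absent from all coding transcripts of the gene. The other fragments counted for Cox5b-205 match coding transcripts too, so their division was an estimate of the quantifier.

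In 2 members, Cox7b and Atp5f1, the main transcript by TPM differed between the libraries, against 12.4% of such genes. In the second tables it differed in Atp5f1 and Atp5s, and not in Cox7b. In Cox7b (ENSMUSG00000031231.4, chrX:106015700-106022450) the coding transcript Cox7b-201 held 68.9% in replicate 1 and 42.2% in replicate 2, and the retained-intron transcript Cox7b-203 held 30.6% and 51.3%. The second tables differed from both, with the processed transcript Cox7b-202, of 180 bases, at 38.9% and 45.4%. By fragments Cox7b-201 led in both libraries, with 18619 and 8100 against 3587 and 4519 for Cox7b-203 in the first tables. In the second tables it had 20735 and 10652, against 2530 and 2582 for Cox7b-202. In Atp5f1 (ENSMUSG00000000563.17, chr3:105942698-105960099) the coding transcript Atp5f1-201 held 53.9% and 47.0%, and Atp5f1-203, annotated for nonsense-mediated decay, held 45.7% and 52.6%. The second tables gave Atp5f1-203 46.7% and 58.3%, again with the coding transcript ahead in replicate 1 alone. By fragments in the first tables Atp5f1-201 led in both libraries, with 12664 and 6997 against 8562 and 6282 for Atp5f1-203. By fragments in the second tables it led in replicate 1 alone. By TPM, Atp5b was divided almost evenly in both libraries, with 50.9% and 50.3% in the coding transcript Atp5b-201. The rest was in noncoding ones, chiefly Atp5b-206, of 478 bases, at 43.8% and 37.8%. In the second tables Atp5b-201 held 57.9% and 53.8%. By fragments Atp5b-201 was far ahead in the first tables, with 50912 and 30304 against 7864 and 4503 for Atp5b-206.

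Between the libraries the members varied little. Of 47 members with a mean CPM of at least 1, 1 was 1.5-fold or more higher in replicate 2, against 3.98% of 14640 genes, and none was 1.5-fold or more lower, against 16.1%. Of 1432 tested nuclear protein coding genes at 100 TPM or more, 22 were higher and 129 lower. Of 37 tested nuclear complex I genes 0 were higher and 1 lower, so few such differences were not particular to the members. The ratios were of CPM at TMM library sizes plus 0.5. The median size of the log2 ratio, whatever its sign, was 0.13 over the members, 0.26 over all tested genes and 0.19 over 1432 nuclear protein coding genes with a mean of 100 TPM or more. The signed median was 0.083 over the members, with 33 of 47 above 0, against 0.0044 and 50.4% over all tested genes, and 0.084 over those 1432 genes. With trends on GC content and length over all genes removed, the signed median was 0.0094 and 24 of 47 members were above 0. The counting interval lay above 0 for 29 members and below 0 for 9, against 31.7% and 34.6% of all tested genes. These differences set 1 library against 1, have no replicate check, and their 95% exact Clopper-Pearson intervals cover counting error only.

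The single member beyond 1.5-fold was Sdhd (ENSMUSG00000000171.5, chr9:50596357-50603812), with 3916 and 3578 fragments in libraries that differed 1.94-fold in total. Its log2 ratio was 0.73 (counting interval 0.67 to 0.80), its second table levels were 67.0 and 123.7 TPM, and all its 31-base stretches were unique. It was still beyond 1.5-fold with the GC and length trends removed, at 0.64. Atp5j2, subunit f of the synthase, followed at 0.49, Sdha at 0.45 and Uqcrc1 at 0.42. At the other end, Cox6a2 was at -0.42 and Cyc1 at -0.20 (counting interval -0.24 to -0.16). For Cyc1 the direction turned with the measure, since its length-corrected level was 342.06 and 350.24 TPM, a log2 ratio of 0.034.

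By complex, the median log2 ratio was 0.33 over the 4 genes of complex II, 0.17 over the 9 of complex III, -0.015 over 14 tested genes of complex IV and 0.093 over the 17 of complex V. In complex III 8 of 9 genes were above 0, in complex IV 5 of 14 and in complex V 14 of 17. With GC and length trends removed, the medians were 0.33, 0.14, -0.13 and 0.018, and 6 of 9, 2 of 14 and 10 of 17 genes of complexes III, IV and V were above 0. The 10 usual forms of complex IV lay between -0.11 and 0.18. Over the 47 members the Spearman correlation of length and log2 ratio of CPM was 0.15, and over all tested genes -0.10, as descriptions across genes. Mean fragment lengths inferred from effective lengths were 163 and 123 bases. The 32 tested members under 1000 bases had a median log2 ratio of 0.042, with 20 above 0 against 61.1% of all such genes, and the 15 longer ones 0.156, whereas over all tested genes the medians were 0.076 and -0.009. The part of fragment length in the ratios was not tested.

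**Figure D4:**
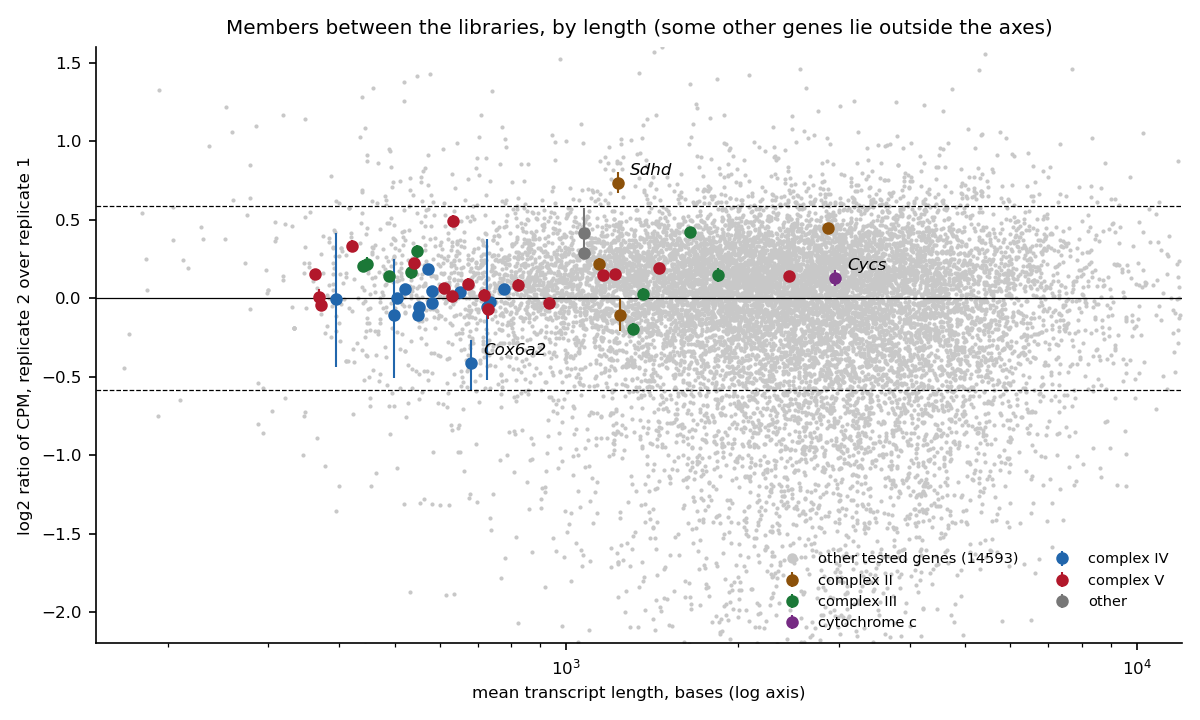
Log2 ratio of CPM, replicate 2 over replicate 1, against mean transcript length in bases (log axis) for the 47 tested members (coloured by complex, bars are 95% counting intervals) and 14593 other tested genes (grey). Dashed lines mark 1.5-fold; Sdhd at 0.73 is the only member beyond them.

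Shorter members had higher levels. The Spearman correlation of length and mean TPM was -0.53 over the 47 tested members, as a description across genes of the same libraries. Over the 40 genes that carry the usual or only form of a subunit of complexes II to V and the c-ring genes, it was -0.70. Over the 12430 detected nuclear protein coding genes it was -0.35. TPM is corrected for effective length, and for the shortest members that correction is large: the mean length of Usmg5 was 363 bases, and its effective length was 201.6 bases in replicate 1 and 240.0 in replicate 2.

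The mitochondrial partners of these subunits were higher than most members. The 6 mitochondrially encoded genes of complexes III, IV and V had a median of 3296 ± 369 TPM. By mean they ran from mt-Cytb, the only one of complex III, at 1580.31 and 1308.62 TPM to mt-Atp8 at 18333 and 17848 TPM. By fragments mt-Atp6 was the highest of them, at 293701 and 166484, against 43405 and 30718 for mt-Atp8. Of the 6, 4 had under 50% unique 31-base stretches, so their division from nuclear copies and from each other is uncertain. Ndufa4, a complex IV subunit under a complex I name and outside the rule, stood at 2929 and 3309 TPM, near Cox6c.

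Assembly factors had lower medians than the subunits of their complexes, though single factors such as Sdhaf4 and Uqcc2 lay above the lowest subunits. The 21 complex IV assembly genes had a median of 39.1 ± 5.66 TPM and ran from Sco1, a copper chaperone, at 2.43 and 3.91 TPM to Cox17, which supplies the copper, at 615.03 and 654.57 TPM. The 4 complex II factors had a median of 38.6 ± 4.67 TPM, with Sdhaf4 highest at 131.41 and 133.59 TPM and Sdhaf3 lowest at 5.38 and 7.2. The 6 complex III factors had a median of 36.5 ± 3.71 TPM, from Lyrm7 at 11.06 and 10.18 to Uqcc2 at 489.82 and 551.91 TPM. Among the 4 assembly factors and the inhibitor of complex V, the inhibitor Atpif1 reached 1409.91 and 1444.98 TPM, close to Atp5b, and Atpaf2 was lowest at 18.05 and 24.61 TPM. Of these 36 genes none was 1.5-fold or more higher in replicate 2 and 2 were lower, against 3.98% and 16.1% of all tested genes.

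The list of 14 regulators of nuclear respiratory genes or of mitochondrial DNA transcription had a median of 5.63 ± 0.80 TPM. By mean they ran from Perm1 at 0.28 and 0.27 to Polrmt, the mitochondrial RNA polymerase, at 12.83 and 18.99 TPM. Of 13 tested regulators none was 1.5-fold or more higher in replicate 2, against 3.98% of all tested genes. Lower were 3 (Esrra, Ppargc1b and Pprc1), against 16.1%, and 5 of the 13 had a ratio above 0. The receptor Esrra stood at 10.92 and 3.62 TPM. The coactivator Ppargc1a stood at 13.9 and 7.78 TPM, and its log2 ratio of CPM, -0.42, did not reach the cutoff. The member median was 692.9 and 727.8 TPM. The factors whose motifs are described next, Nrf1 and the GABP α subunit Gabpa, stood at 6.39 and 8.79 and at 3.33 and 4.03 TPM.

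Nuclear respiratory factor 1 and the ETS factor GABP are textbook regulators of respiratory chain genes, so the promoters of the members were searched for their letters. RefSeq promoter windows (GRCm38.p6, 250 bases before to 50 after the start) were matched by symbol for 35 of the 51 member symbols. The core letters of the nuclear respiratory factor 1 motif, the palindrome CGCATGCG, were found in 8 of the 35 (22.9%), against 2.07% of 27025 genes and 4.33% of 9746 detected nuclear protein coding genes. The ETS letters CCGGAAG were in 12 of 35 (34.3%), against 9.93% and 19.6%. The letters AAGATGGC of YY1, another factor tied to these genes, were in 2 of 35 (5.71%), against 3.19% and 5.32%. Both strands were searched, the motifs do not contain one another, and a match describes the letters and not binding.

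The palindrome was in the promoters of Uqcr11 and Uqcrc1 of complex III, of Cycs, of Cox6a1, and of Atp5g2, Atp5j, Atp5k and Atp5l of the ATP synthase. No complex II promoter in the table held it, whereas the ETS letters were in those of Sdhb and Sdhd. Atp5j, Atp5k, Atp5l, Cox6a1 and Uqcr11 held both. The bases around it are shown for 4 of these genes whose printed stretch lies wholly before the RefSeq start, to show how differently it is placed. They are given 5′ to 3′ on the gene's strand, with the palindrome in capitals.

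Cycs, chr6:50566583-50566670, minus strand: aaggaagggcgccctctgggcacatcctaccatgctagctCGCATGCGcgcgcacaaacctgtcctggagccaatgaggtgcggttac
Cox6a1, chr5:115349072-115349159, minus strand: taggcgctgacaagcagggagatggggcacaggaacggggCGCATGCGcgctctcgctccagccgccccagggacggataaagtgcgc
Atp5k, chr5:108434401-108434488, minus strand: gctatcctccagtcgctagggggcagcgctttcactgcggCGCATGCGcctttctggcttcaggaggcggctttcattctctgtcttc
Atp5j, chr16:84835076-84835163, minus strand: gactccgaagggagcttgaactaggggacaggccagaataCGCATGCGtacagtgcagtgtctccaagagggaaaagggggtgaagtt

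Its first base lay 61 bases before the RefSeq start of Cycs, 161 before that of Cox6a1, 49 before that of Atp5k and 147 before that of Atp5j. The GENCODE M21 genes used for the levels can start elsewhere. On the minus strand, Atp5j reaches 84835625, beyond its printed stretch, and Atp5k reaches 108434448, within its own. The levels of these genes ran from 69.62 and 82.28 TPM for Cycs to 2148.63 and 2402.48 TPM for Cox6a1, so they did not share a level.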

How the data were processed

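Poly(A)+ RNA from mouse left cerebral cortex was measured in 2 libraries. Per the labels and the notes deposited with the tables, values are on mm10 with GENCODE M21. The authors deposited, per library, a gene table and a transcript table with expected counts, TPM and isoform percent, and a second transcript table with estimated counts and TPM, the latter summed per gene here. The deposited counts are not normalized, and the authors corrected TPM for effective length, per the file headers. The aligner, the quantifiers and the use of strand (not given in the sources used here) are unknown, so reads of overlapping antisense genes cannot be told apart from a gene's own.

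Expected counts were rounded and set to CPM at TMM sizes (edgeR 4.0.16, R 4.3.3; factors 0.970 and 1.031) over 14640 genes at a mean CPM of at least 1, and log2 ratios used CPM plus 0.5. TPM ratios between quantifications used TPM plus 0.1 at a mean TPM of at least 5. Rows with numeric names (26248), spike-ins (97) and gene rows without a symbol (86) were left out, with 0.0239% and 0.0198% of fragments. GC and length trends used lowess with a fraction of 0.3 (statsmodels 0.14.6). Stretches of 31 bases were compared over all M21 transcripts. The ratio was tested on simulated data. Alternatives were DESeq2 1.42.0 size factors, other filters, pseudocounts and thresholds, the second tables and each library alone. Members, lists and motifs were chosen with earlier results of these data known. Named genes were the 3 highest and the lowest of each complex, subunits with several genes, cytochrome c and its reductase, members apart between libraries or quantifications or with a main transcript that was noncoding or differed, and the highest and lowest of other lists; others were chosen after their values were seen.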

Additional observations from a re-analysis of the deposited data

How the results depend on the processing

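Every member median kept its rank order II, III, V, IV under both alternatives of scale. With the second transcript tables the median was 597 TPM for complex III, 1318 for IV, 805 for V and 547 for all members; rescaled to nuclear protein coding genes, 871, 1339, 1235 and 856. Leaving out a replicate gave 150 to 230 TPM for complex II and 693 to 728 for all members. The median log2 ratio over the members was 0.17 with total counts, against 0.087 over all tested genes. With GC and length trends removed it was 0.0094, against 0.0025, and with TPM ratios 0.091, against 0.078. The member median was positive under all 9 alternatives, but with TPM ratios only 25 of 47 members lay above the all-gene median. Between libraries, 0 members stood apart at 2-fold. Between quantifications, 3 differed at 1.5-fold, against 1 at 2-fold. The shares of all genes at 2-fold between libraries and at 1.5-fold between quantifications are not given, so these counts describe the members only. By the second tables the shares were 0.120% for Cox4i2, 0.731% for Cox7a1, 0.0872% for Cox7b2, 52.3% for Atp5g1, 9.85% for Atp5g2 and 37.9% for Atp5g3. By counts they were 0.499% for Cox6b2, 0.363% for Cox7a1, 0.0978% for Cox7b2, 0.0124% for Cox8b, 47.5% for Atp5g1, 15.1% for Atp5g2 and 37.3% for Atp5g3. Members with a main transcript that is not protein coding numbered 2 in the second tables (Cox5b and Cox7b). With a replicate left out they numbered 1 to 3, with 3 without replicate 1, and the cause was not tested. Shares of all genes in the second tables or with a replicate left out are not given. No paired analysis was possible because there was 1 group only. The muscle and testis forms under 20 fragments, Cox7b2 and Cox8b, are limited by depth.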
